A study of Mus musculus with 2 samples.

Results

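Endothelial cells line blood and lymphatic vessels, and in the uterus of early pregnancy they supply the tissue that will receive the embryo. Here they were the cell barcodes that met a rule on UMIs (counted RNA molecules) of marker genes. A barcode was kept when at most 10% of its UMIs came from mitochondrial genes and when the UMI sum of 7 endothelial genes, Pecam1, Flt1, Egfl7, Adgrl4, Robo4, Shank3 and Arhgef15, was at least 2. That sum, called the gate sum below, also had to be above each of 4 other sums. These were an epithelial sum (Epcam, Cdh1, Cldn3, Cldn7, Elf3), a stromal sum (Col1a1, Col1a2, Col3a1, Hoxd10, Pdgfra), a mesothelial sum (Msln, Upk3b, Upk1b) and a myeloid sum (Ptprc, Stab1, Csf1r). The rule found 307 endothelial cells among 7908 barcodes, 238 in the Erbb3 f/f library and 69 in the Erbb3 d/d library. The cells were thus chosen by the measured UMIs of these genes, and the levels of those genes are given as a description.

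The study profiled endometrial cells of mouse uterus on day 3 of pregnancy, with 1 library from Erbb3 f/f females, the controls, and 1 from Erbb3 d/d females, for which the labels state a deletion of Erbb3 in the stroma. Erbb3 encodes a receptor of the ErbB family, and the series concerns the shape of uterine glands. Pieces of tissue of about 25 mg were fixed for 16 h and then dissociated with collagenases, and RNA was read with the Chromium Flex assay, in which probe pairs hybridise to transcripts of fixed cells. The strain, the age, the number of mice per library, the floxed exons and the driver of the deletion are not given in the sources used here, and the library titles carry different closing digits. With 1 library per genotype no test across animals could be made, so each difference below compares 2 libraries, and every interval is a 95% interval of counting error.

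The f/f library held 5783 barcodes, of which 5503 were within the mitochondrial limit, and the d/d library 2125, of which 1830 were. No full barcode occurred in both libraries, and 158 barcodes agreed over their first 16 bases, none of them between 2 endothelial cells. With any barcode of the other library, 7 f/f and 9 d/d endothelial cells agreed over these bases. The f/f endothelial cells summed to 235524 UMIs, with a median of 802 UMIs and 685 genes per cell, and the d/d endothelial cells to 64109, with medians of 730 and 629. The median mitochondrial share was 1.96% in f/f and 3.88% in d/d endothelial cells. Levels are given as CPM, the UMIs of a gene per 1000000 UMIs of all endothelial cells of a library. Probes differ between genes, so a level is compared across cells and libraries, never between genes.

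Erbb3 itself was almost absent from these cells, with 5 f/f and 1 d/d UMIs. In cells gated as stromal by the mirror of the rule it had 57 and 6 UMIs (25.3 and 9.62 CPM, a log2 ratio of -1.40, -2.90 to -0.19). In epithelial-gated cells it had 115 and 25 UMIs (81.6 and 57.1 CPM, -0.52, -1.20 to 0.12). Whether its probes lie within the deleted part is not given in the sources used here.

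An endothelial cell is built around a small set of receptors and transcription factors. VEGF receptors and the angiopoietin receptor Tie2 (Tek) carry growth and survival signals, VE-cadherin (Cdh5) and claudin-5 seal the junctions, and ETS-family factors such as Erg and Fli1, with SoxF factors, hold many endothelial genes active. Arteries, veins, capillaries and lymphatics add programs of their own, among them Notch signalling in arteries and Prox1 in lymphatics.

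Promoter sequences are shown for 4 endothelial genes whose levels are given below, picked after the search because they hold the DNA word described next. They come from RefSeq on GRCm38.p6 and run from 250 bases before to 50 bases after a transcript start. Capitals mark CAGGAA, a word that holds the GGAA core of ETS-factor sites, read on either strand, so that TTCCTG is the same word on the other strand.
Robo4, chr9:37401722-37402021, plus strand: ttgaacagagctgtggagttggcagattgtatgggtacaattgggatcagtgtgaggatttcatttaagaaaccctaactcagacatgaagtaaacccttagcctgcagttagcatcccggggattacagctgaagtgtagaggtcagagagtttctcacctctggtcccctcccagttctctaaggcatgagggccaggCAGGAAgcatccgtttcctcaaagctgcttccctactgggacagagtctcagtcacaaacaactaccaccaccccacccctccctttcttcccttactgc
Tek, chr4:94739039-94739338, plus strand: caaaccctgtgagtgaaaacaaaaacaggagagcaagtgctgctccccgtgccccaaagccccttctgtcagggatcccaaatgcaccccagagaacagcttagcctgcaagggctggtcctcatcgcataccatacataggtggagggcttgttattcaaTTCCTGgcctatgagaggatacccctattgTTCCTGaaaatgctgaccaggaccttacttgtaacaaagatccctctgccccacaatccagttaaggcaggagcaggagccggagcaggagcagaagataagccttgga
Emcn, chr3:137340828-137341127, plus strand: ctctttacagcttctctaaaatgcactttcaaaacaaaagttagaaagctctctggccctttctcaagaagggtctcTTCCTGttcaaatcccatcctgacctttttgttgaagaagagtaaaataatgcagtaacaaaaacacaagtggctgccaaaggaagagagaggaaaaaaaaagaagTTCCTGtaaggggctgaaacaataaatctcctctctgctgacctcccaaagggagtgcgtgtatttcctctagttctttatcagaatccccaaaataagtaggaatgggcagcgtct
Egfl7, chr2:26580833-26581132, plus strand: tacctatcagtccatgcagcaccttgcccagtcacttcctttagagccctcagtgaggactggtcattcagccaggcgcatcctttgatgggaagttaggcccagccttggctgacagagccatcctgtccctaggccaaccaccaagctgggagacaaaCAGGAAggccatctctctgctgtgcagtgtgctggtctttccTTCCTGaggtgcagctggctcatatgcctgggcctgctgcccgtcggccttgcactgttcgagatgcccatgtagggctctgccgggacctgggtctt

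Robo4 held the word 50 bases before its start, and Tek held it at 89 and 59 bases before, both on the opposite strand. Emcn held it at 173 and 67 bases before its start, and this Egfl7 window at 90 and 48. CAGGAA occurred on either strand in 30.6% of all 32851 promoter windows and in 25.3% of the 4940 windows of genes counted in endothelial cells (1248). The 176 genes enriched in endothelial cells, described below, included the gate genes. Of these 176, 130 matched the table with 182 windows, and 63 of those windows (34.6%) held CAGGAA. It was in 10 of 22 windows of the 20 most enriched genes named below and in 3 of 7 windows of the gate genes. Windows without it included those of Flt1, Shank3, Adgrl4, She, Kank3, Jag2, Abcb1a, Adcy4 and Scin. A second ETS word, CCGGAA, was found in 14.9% of all windows, 27.7% of the windows of counted genes and 10.4% of those of enriched genes. Either CAGGAA or CCGGAA was found in 41.4%, 46.8% and 43.4%, so windows of enriched genes held an ETS word no more often than those of counted genes. The GATA word AGATAA was found in 11.2%, 5.47% and 4.95%. Each word was searched on both strands and scored on its own, and CAGGAA and CCGGAA also together. The words were chosen after the gene levels were known, and a match describes letters only.

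The gated cells carried the endothelial program in genes that the rule did not read. A list of 36 other pan-endothelial genes, of which 34 were in the table and 30 had at least 20 UMIs, summed to 6742 CPM (f/f) and 6863 CPM (d/d) endothelial cells. The same list summed to 1284 and 1222 CPM in epithelial-gated cells and to 1037 and 1196 CPM in stromal-gated cells. After each cell was thinned to 500 UMIs, 89.5% of f/f and 94.2% of d/d endothelial cells had a UMI of the list, against 32.9% and 40.3% of stromal-gated and 45.7% and 44.3% of epithelial-gated cells. Sox17, a list member, was higher in epithelial-gated cells, at 908 and 738 CPM, than in endothelial cells, at 433 and 406 CPM.

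The same list tracked the gate sum. Among f/f barcodes whose gate sum was above every other sum, it stood at 1919 CPM with a gate sum of 1, just outside the rule, and at 3509 CPM with a gate sum of 2, just inside. It reached 4792 CPM at 3, 6853 CPM at 4 to 5 and 7605 CPM at 6 or more. In d/d the values were 1586, 4055, 4035, 5938 and 8328 CPM. Barcodes with a gate sum of 0 had 1060 CPM (f/f) and 1115 CPM (d/d). A further 168 f/f and 60 d/d barcodes had a gate sum of at least 2 that was not above every other sum, and their list levels stayed at or under 3324 CPM in every bin.

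**Figure D1:**
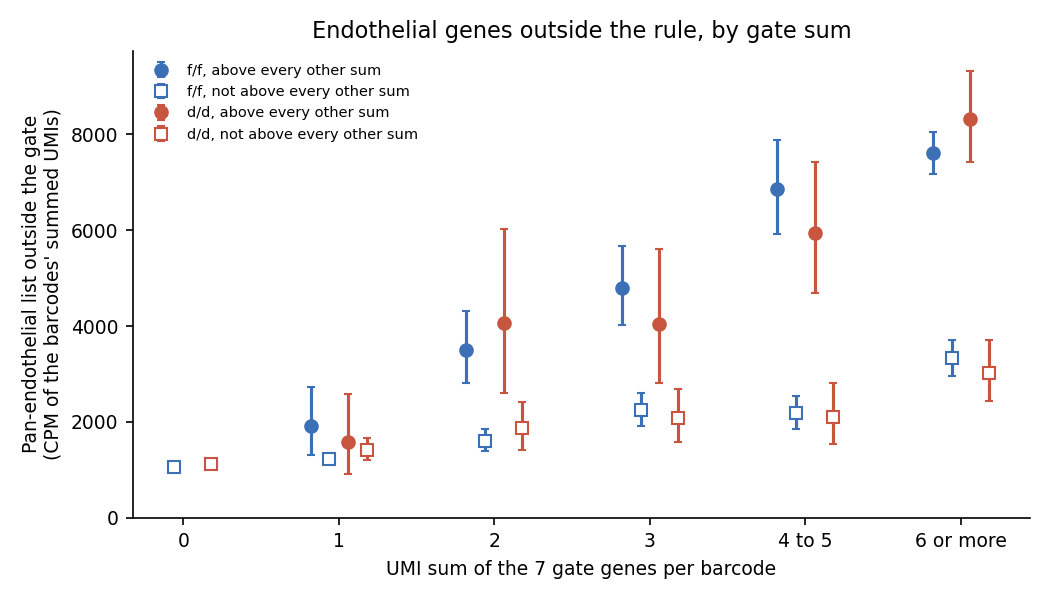
Summed level of the 34 pan-endothelial genes outside the gate (y axis, CPM) by the gate sum of the barcodes (x axis, UMIs), for f/f (blue) and d/d (red), with exact Poisson intervals. Filled points are barcodes whose gate sum was above every other sum, and from 2 upward they are the endothelial cells, which lie above the open points of the same gate sum, those not above every other sum, in both libraries.

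Other cell types left traces. All 4 other sums were at 0 in 68 of the 238 f/f cells (28.6%) and 14 of the 69 d/d cells (20.3%), and the stromal sum was above 0 more often than the others. A gate sum only 1 above the largest other sum was found in 34 f/f and 16 d/d cells. Epithelial markers outside the rule summed to 1240 CPM (f/f) and 1513 CPM (d/d) endothelial cells, against 4338 and 4642 CPM in epithelial-gated cells. Stromal markers outside the rule stood at 1499 and 1544 CPM, against 5848 and 5078 CPM in stromal-gated cells. Myeloid and lymphoid markers had 33 and 12 UMIs, and platelet and red cell markers 4 and 2, with Ppbp, Gp9, Hba-a1 and Hbb-bs at 0 in both libraries.

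Pericyte and smooth muscle markers had 81 f/f and 42 d/d UMIs in endothelial cells, 344 and 655 CPM, a log2 ratio of 0.93 (0.36 to 1.48). No member reached 20 UMIs. Synpo2 had 12 and 5 UMIs, Myh11 12 and 4, Pdgfrb 10 and 6 and Tagln 6 and 8, while Kcnj8 and Actg2 were at 0. Thinned to 500 UMIs, 9.70% of f/f and 23.2% of d/d endothelial cells had a UMI of the list, against 27.3% and 24.9% of stromal-gated cells. The part of these markers and of the higher mitochondrial share in the differences given below was not tested beyond leaving such cells out.

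Endothelial cells made up 4.32% of f/f barcodes within the mitochondrial limit (238 of 5503, 3.80 to 4.90%) and 3.77% of d/d barcodes (69 of 1830, 2.95 to 4.75%). The difference of -0.55 percentage points had an interval of -1.56 to 0.55. A difference of the share was therefore not detectable at this depth.

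Among the gate genes, Egfl7, which encodes a secreted endothelial matrix protein, had 585 UMIs in 200 of the f/f cells and 172 UMIs in 56 of the d/d cells. Shank3, a scaffold protein also known from synapses, had 583 and 144 UMIs. Arhgef15 had 148 and 34, Pecam1, a junctional adhesion molecule, 106 and 37, Flt1, a VEGF receptor, 78 and 17, and Robo4, an endothelial guidance receptor, 70 and 23. All 6 had log2 ratios (d/d against f/f) whose intervals included 0. Adgrl4, an adhesion G protein-coupled receptor, had 253 f/f and 46 d/d UMIs, 1074 and 718 CPM, a log2 ratio of -0.58 (-1.07 to -0.12). When cells were gated by the other 6 genes, so that Adgrl4 played no part in their choice, the ratio was -0.87 (-1.45 to -0.34).

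Of 4638 genes with at least 20 UMIs in endothelial cells, 176 (3.79%) were more than 2-fold above their highest level in the 4 other gated classes. Over the epithelial-gated and stromal-gated classes alone, 312 genes (6.73%) were. Both sets held all 7 gate genes, which the rule itself had read. Of the pan-endothelial list, 25 of the 30 counted members were past 2-fold over the 4 classes. Their list had a median log2 ratio over the highest other class of 2.98, beside -0.36 over all counted genes. Among those with at least 40 UMIs, gate genes left out, Erg, an ETS factor, led at 4.70, with 43 f/f and 14 d/d UMIs in endothelial cells and levels of at most 12.8 CPM in any other class of either library. Ushbp1 followed at 4.48, Sox18, a SoxF factor, at 4.35, the orphan receptor Tie1 at 4.15, the adaptor She at 4.15 and Ccm2l, a relative of the cavernous malformation gene Ccm2, at 4.02. Emcn, the sialomucin endomucin, stood at 4.00, Ecscr at 3.91, the actin-severing protein Scin at 3.87 and the semaphorin Sema7a at 3.86.

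Within the same limits the next 10 genes ran from 3.78 to 3.24. They were Thsd1, Kank3, the VE-cadherin-associated phosphatase Ptprb, the efflux pump Abcb1a, the adenylate cyclase Adcy4, Tek, Cyyr1, Palmd, Mcf2l and the Notch ligand Jag2. Of these 20 genes, 2 had an interval of the ratio between libraries that left out 0, Ushbp1 above and Emcn below. Over all 2083 genes with at least 40 UMIs the shares were 5.66% above and 5.33% below. These enrichments restate in part how the cells were chosen, since the gate set these cells apart from the others.

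**Figure D2:**
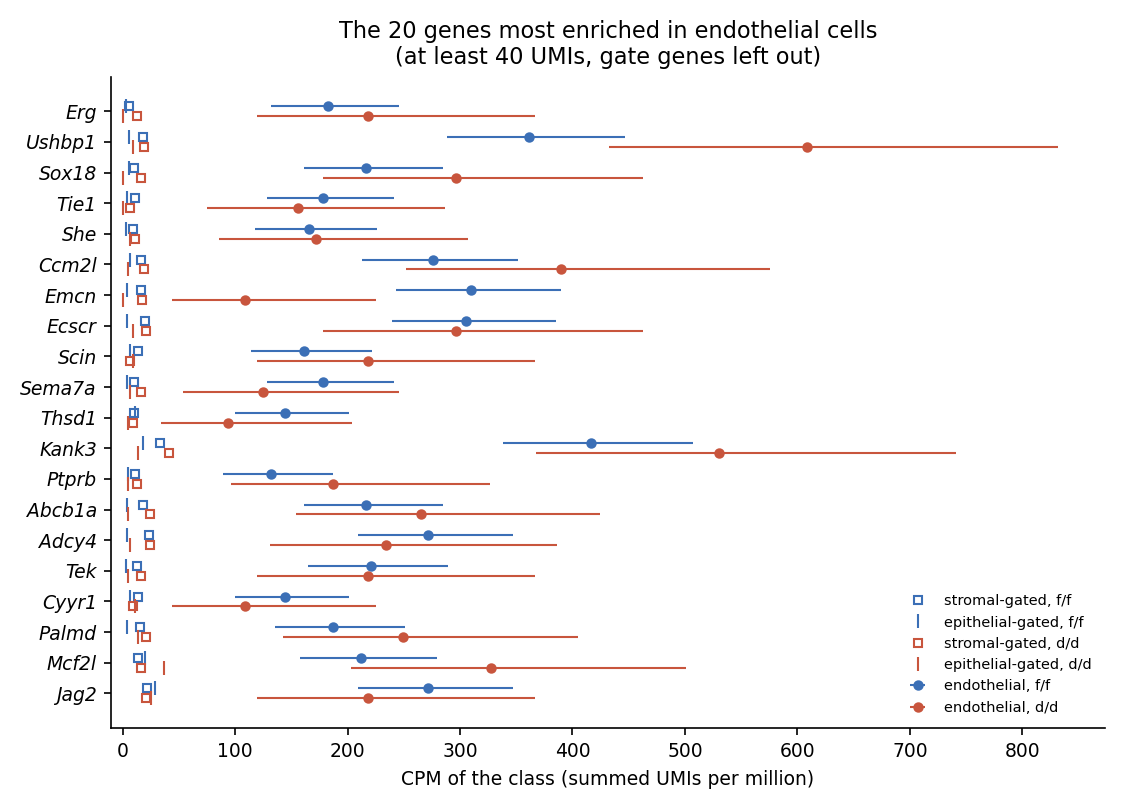
Levels (x axis, CPM of the class) of the 20 genes most enriched in endothelial cells among those with at least 40 UMIs, gate genes left out, with exact Poisson intervals for endothelial cells of f/f (blue) and d/d (red); open squares are stromal-gated and ticks epithelial-gated cells of the same libraries. Endothelial levels lie from 93.6 to 608 CPM, and Emcn is the gene with the widest gap between the libraries on the f/f side.

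The list of VEGF and angiopoietin receptors also holds the phosphatase Ptprb. Of its 8 counted members, 6 were past 2-fold over the other classes, among them the gate gene Flt1, which the rule itself had read. Tek had 52 f/f and 14 d/d UMIs, Tie1 42 and 10, and Ptprb 31 and 12. Kdr, the main VEGF-A receptor, had 30 and 4 UMIs, 127 and 62.4 CPM, and the co-receptor Nrp1 had 27 and 4 UMIs and Nrp2 25 and 4. The list's median log2 ratio was -0.26, beside -0.06 over all 4638 genes, and the interval of every member included 0. For Kdr it ran from -3.00 to 0.48, so these counts could not tell a lower level from none.

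Between the libraries, 2083 genes with at least 40 UMIs could be compared. Of these, 48 (2.3%) were more than 2-fold higher and 150 (7.2%) more than 2-fold lower in d/d endothelial cells. The spread of the log2 ratios had an SD of 0.62, where counting error alone gives 0.47. Intervals left out 0 for 118 genes above (5.66%) and 111 below (5.33%). With at least 20 UMIs the corresponding shares were 4.36% higher and 12.1% lower past 2-fold among 4638 genes, and intervals left out 0 for 4.18% above and 3.92% below. In bulk sums such as these, fewer cells with a gene and less RNA per cell cannot be told apart.

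The 176 endothelial-enriched genes, gate genes included, were a set chosen after the data had been seen. Of these, 12 (6.82%) were past 2-fold higher and 23 (13.1%) past 2-fold lower, beside 4.36% and 12.1% of all counted genes. Intervals left out 0 for 14 above (7.95%) and 11 below (6.25%), beside 4.18% and 3.92% of all counted genes. The set was filtered on counts summed over both libraries, so a gene could enter through 1 library alone, and these counts are a description that supports no difference. Of the 11 genes below 0, all 11 were past 2-fold over the other classes in f/f alone and 3, Emcn, Pkn3 and the gate gene Adgrl4, in d/d alone. Of the 14 above 0, 12 were so in f/f alone and 13 in d/d alone.

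Endomucin, the product of Emcn, coats venous and capillary endothelium. Emcn had 73 UMIs in 57 of the f/f cells and 7 UMIs in 7 of the d/d cells, 310 and 109 CPM. The log2 ratio was -1.51 (-2.87 to -0.39), and over 11 other settings it ran from -2.08 to -0.97. Stromal-gated cells held it at 16.5 and 17.6 CPM.

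Aplnr, the apelin receptor of veins and sprouting vessels, had 24 UMIs in 20 of the f/f cells and none in d/d, which makes it at least 2.18-fold lower against a floor of 3 UMIs over the d/d cells, with the f/f count taken as exact. The upper bound of its exact interval, which also carries the error of the f/f count, was a log2 ratio of -0.71. Pdia5, a protein disulfide isomerase, had 67 and 5 UMIs, a log2 ratio of -1.87 (-3.54 to -0.57). Prkd2, protein kinase D2, had 114 and 15 (-1.05, -1.93 to -0.27), Macf1, a cytoskeletal linker, 116 and 16 (-0.98, -1.83 to -0.22), and Sorbs2 80 and 10 (-1.12, -2.24 to -0.17). Pkn3, a protein kinase, had 150 and 26 UMIs (-0.65, -1.31 to -0.04). Fam167b had 22 and 0, Slc66a2 27 and 1 and Klhl5 24 and 1 UMIs. In d/d alone, Slc66a2 and Klhl5 lay below another class (-2.50 and -1.75), and Fam167b and Aplnr had no UMI. Pdia5, Prkd2, Macf1 and Sorbs2 fell short of 2-fold there, with log2 ratios over the highest other class of 0.52, 0.57, 0.66 and 0.29. Of the genes in this paragraph only Pkn3 was past 2-fold in d/d alone (1.83), and the others entered the set through f/f.

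On the other side, Eng, the TGF-beta co-receptor endoglin, had 100 UMIs in 73 of the f/f cells and 49 UMIs in 26 of the d/d cells, 425 and 764 CPM. Its log2 ratio was 0.85 (0.32 to 1.36), with a range of 0.48 to 1.12 over other settings, while stromal-gated cells held it at 60.0 and 49.7 CPM. Plxnd1, a semaphorin receptor, had 133 and 54 UMIs (0.58, 0.09 to 1.04). Jag1, a Notch ligand, had 66 and 30 (0.74, 0.07 to 1.38), and Ushbp1 85 and 39 (0.75, 0.17 to 1.32). Pdgfb, the growth factor that recruits pericytes, had 43 and 23 UMIs, 183 and 359 CPM (0.97, 0.18 to 1.74).

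Pdgfb was also higher in d/d in epithelial-gated (1.36, 0.32 to 2.39) and stromal-gated cells (1.40, 0.67 to 2.11). For Eng the values there were -0.64 (-3.07 to 1.19) and -0.27 (-0.88 to 0.30). Ece1, the endothelin-converting enzyme, had 34 and 19 UMIs (1.04, 0.15 to 1.89), Elk3, an ETS factor, 103 and 44 (0.65, 0.11 to 1.17), and Adamts9, a matrix protease, 116 and 47 (0.57, 0.05 to 1.07). Emid1 had 54 and 28, Myrip 48 and 24, Fam171a1 57 and 32, Tmem44 29 and 19, Syt15 17 and 16 and Tbx1 15 and 12 UMIs. Without the cell with the most Tbx1 UMIs in each library its ratio moved from 1.56 to 0.50, and at a mitochondrial share of at most 5% it was -0.97.

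Some of these ratios turned in the 68 f/f and 14 d/d cells in which all 4 other sums were at 0. There Pdgfb stood at -0.24, Fam171a1 at -0.16, Pkn3 at 0.073, Prkd2 at 0.16 and Slc66a2 at 0.26. Of the list members given below, Adgrf5 and Edn1 stood at -0.064, Lmo2 at -0.62 and Jam2 at 0.035.

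**Figure D3:**
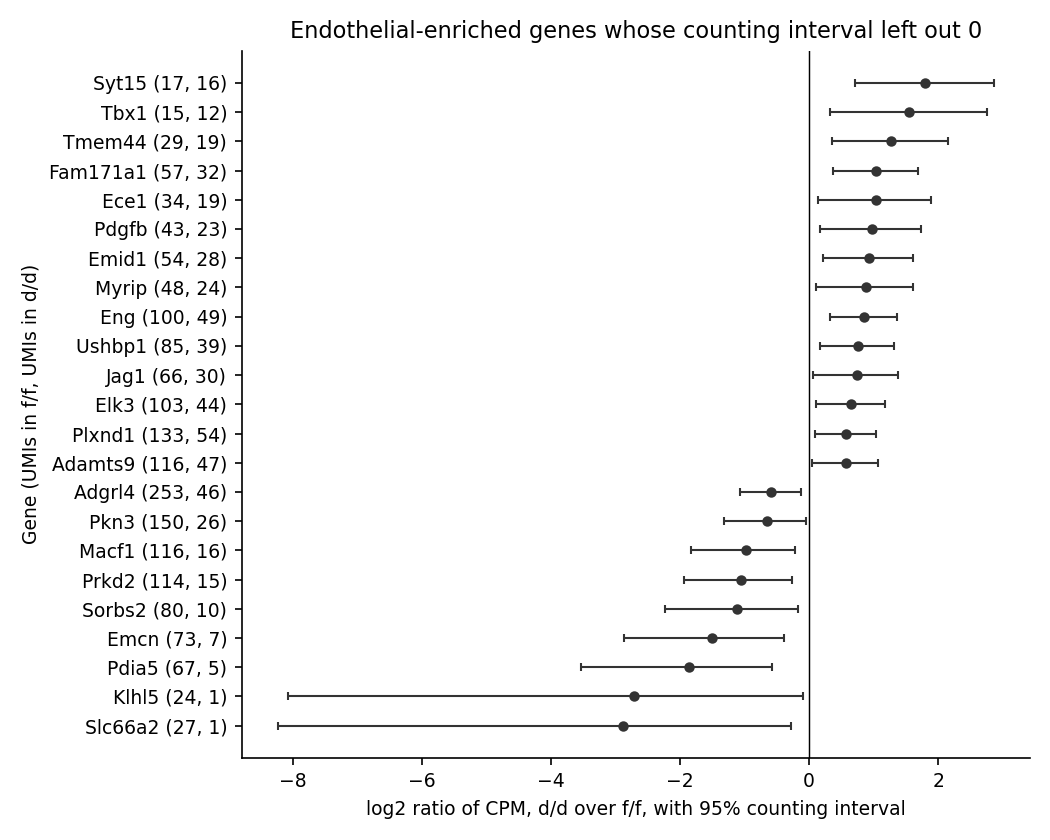
Log2 ratio of CPM, d/d against f/f, (x axis) with exact conditional binomial intervals for the endothelial-enriched genes whose interval left out 0 and that had UMIs in both libraries; UMIs in f/f and d/d stand beside each name. The 14 genes above 0 span 0.57 to 1.79 and the 9 below, the gate gene Adgrl4 among them, span -2.88 to -0.58. The widest intervals are those where d/d had 1 UMI.

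The pan-endothelial list as a whole lay near 0, with a median log2 ratio of -0.05 and 13 of 30 members higher in d/d, beside 2186 of all 4638 counted genes. Besides Eng, Ushbp1 and Emcn, intervals left out 0 for Adgrf5, an adhesion receptor, with 84 and 37 UMIs (0.69, 0.10 to 1.27), and Esam, a tight-junction adhesion molecule, with 157 and 25 (-0.77, -1.44 to -0.16). Of the 30 members, 3 thus had intervals above 0 and 2 below, beside 4.18% and 3.92% of all counted genes. Cdh5 had 37 and 13 UMIs (0.37, -0.67 to 1.31).

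Of 9 counted arterial genes, 8 had ratios above 0, beside 2186 of all 4638 counted genes, and the list's median log2 ratio was 0.29. The arterial list summed to 429 f/f and 164 d/d UMIs, 1821 and 2558 CPM, a log2 ratio of 0.49 (0.22 to 0.75). Jag1 and Edn1, which encodes the vasoconstrictor endothelin-1, were the 2 of 9 members whose intervals left out 0. Both lay above 0, beside 4.18% of all counted genes. Over 10 other settings the interval of Jag1 left out 0 in 5 and that of Edn1 in 8. Edn1 had 13 UMIs in 12 f/f cells and 12 UMIs in 9 d/d cells (1.76, 0.50 to 3.01), and it was higher in epithelial-gated d/d cells as well (0.82, 0.17 to 1.45). The Notch ligand Dll4 had 44 and 13 UMIs (0.12, -0.90 to 1.04), Jag2 64 and 14 (-0.32, -1.26 to 0.53) and the chemokine Cxcl12 58 and 17 (0.11, -0.77 to 0.91). With each cell thinned to 500 UMIs the list's median was -0.01.

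Venous genes had a median of 0.08 over 7 counted members and a sum of 293 and 73 UMIs (-0.13, -0.52 to 0.25). The venous receptor Ephb4 had 60 and 21 UMIs and the venous factor Nr2f2 59 and 17, but Nr2f2 was higher in stromal-gated cells, at 397 and 229 CPM, than in endothelial cells, at 251 and 265. Vwf, von Willebrand factor, had 29 and 4 UMIs (-0.98, -2.95 to 0.53) and Bst1 15 and 0. Ackr1, a marker of post-capillary venules, was at 0 in both libraries, and the selectins Selp and Sele had 1 UMI or none per library.

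Capillary genes were thinly covered, with 5 of 18 members counted and Fabp4, Btnl9 and Timp4 at 0 in both libraries. Plvap, the protein of fenestral diaphragms, had 19 and 10 UMIs (0.95, -0.32 to 2.13), Podxl 24 and 11, Ehd4 59 and 15 and Rgcc 20 and 4. None had an interval that left out 0.

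Lymphatic genes were held by few cells. Unthinned, 13.4% of f/f and 18.8% of d/d endothelial cells had a UMI of the list of 14, against 18.9% and 22.3% of stromal-gated cells. From that list 6 genes were picked, Prox1, Lyve1, Flt4, Ccl21a, Mmrn1 and Reln. The pick followed no rule set beforehand and left out other members, such as Thy1 and Fgl2, so its counts are a description. At least 2 of these 6 were found in 5 of the 238 cells in f/f (2.10%, 0.69 to 4.83%) and in 3 of the 69 in d/d (4.35%, 0.91 to 12.2%). Those cells carried 21 of the 31 f/f UMIs and 25 of the 26 d/d UMIs of these genes. Flt4, the receptor of VEGF-C, had 12 UMIs in 11 f/f cells and 8 UMIs in 2 d/d cells. Thy1 and Fgl2, counted in the same list, had ratios of 1.65 and 1.64. Thy1 stood at 59.4 and 187 CPM in endothelial and at 128 and 101 CPM in stromal-gated cells.

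A cell was put in a vessel-type range when its UMI sum of one of the 4 lists was at least 2 and above the sums of the other lists. The arterial range held 62 cells of the f/f library (26.1%, 20.6 to 32.1%) and 26 of the d/d library (37.7%, 26.3 to 50.2%). The venous range held 41 and 9 cells, the capillary range 21 and 5, the lymphatic range 5 and 4, and 109 and 25 cells fell in no range. The same rule put 14.0% and 12.2% of stromal-gated cells in the arterial range and 11.6% and 9.74% in the venous range. In the arterial, venous and capillary ranges the endothelial share lay above the stromal-gated share in both libraries, and in the lymphatic range only in d/d. Intervals of the endothelial and stromal-gated shares were apart in both libraries only for the arterial range. For the venous range they overlapped in both libraries. After thinning to 500 UMIs, 50.6% of f/f and 65.2% of d/d endothelial cells had a UMI of the arterial list, a difference of 14.6 points (0.55 to 27.4), which was -0.70 with thinning to 300 UMIs and -3.20 with no mitochondrial limit. The ranges are cuts of a score, and 59 f/f and 15 d/d cells had an arterial sum of exactly 1.

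**Figure D4:**
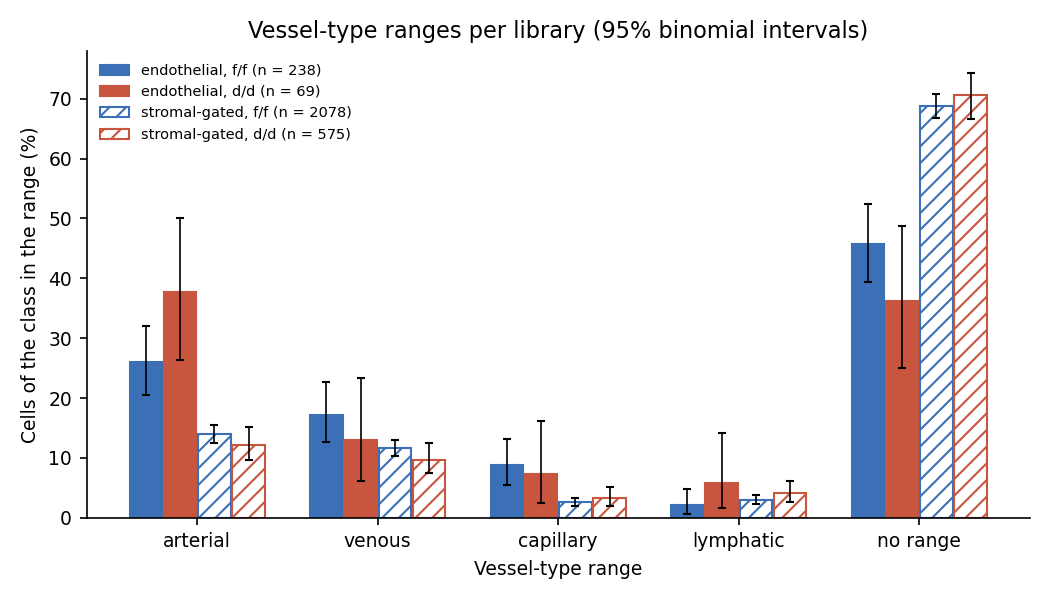
Share of cells (y axis, percent) in each vessel-type range, for endothelial cells (filled bars) and stromal-gated cells (hatched bars) of f/f (blue) and d/d (red), with exact binomial intervals. The arterial bars of endothelial cells, 26.1% and 37.7%, stand above the hatched ones, 14.0% and 12.2%, and the intervals of the filled bars overlap between the libraries in every range.

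Genes outside the 4 lists were then compared between the arterial and the venous range, with both libraries summed, as a comparison added after the data had been seen. Over all 2027 genes with at least 20 UMIs in these cells, intervals left out 0 for 62 above (3.06%) and 70 below (3.45%). Among 101 counted genes of the endothelial lists and the enriched set, gate genes left out, they did so for 3 above and 11 below. Higher in the arterial range were Igfbp3, an IGF-binding protein, with 21 UMIs against 2 (2.71, 0.68 to 5.85), the hypoxia factor Epas1 with 26 against 6 (1.43, 0.12 to 3.00) and Nherf2 with 98 against 37 (0.72, 0.16 to 1.31).

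Higher in the venous range were Gimap6 with 17 UMIs against 7, Pdia5 with 28 against 14, Pkn3 with 60 against 42, Emcn with 22 against 17, Prkd2 with 39 against 34 and Adcy4 with 24 against 20. For Emcn this was 399 CPM in the venous and 192 CPM in the arterial range, a log2 ratio of arterial over venous of -1.05 (-2.06 to -0.07). The remaining ones were Rgl1, the ETS factor Fli1, Smad1, Foxp1 and Plec, which were not lower in the arterial range of d/d cells taken alone. Within the arterial range Emcn stood at 247 CPM (f/f) and 71.9 CPM (d/d), on 15 and 2 UMIs, and within the venous range at 457 and 109 CPM, on 21 and 1. The libraries were mixed unequally, with 60633 f/f and 27820 d/d UMIs in the arterial range and 45962 and 9186 in the venous range. In the summed ratios this moves genes lower in d/d, such as Emcn, Pdia5, Pkn3 and Prkd2, toward the venous range. In f/f alone the arterial and venous levels were 198 and 587 CPM for Pdia5, 577 and 1175 for Pkn3 and 462 and 783 for Prkd2.

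Genes of tip cells and sprouting had a median log2 ratio of 0.58 over 10 counted genes. Of these, 8 were above 0, beside 2186 of all 4638 counted genes. The list summed to 422 and 154 UMIs (0.42, 0.15 to 0.69). Plxnd1 and Pdgfb were the 2 of 10 members whose intervals left out 0. Both lay above 0, beside 4.18% of all counted genes. Apln, the apelin ligand, had 25 and 6 UMIs, Esm1 3 and 0, and Cxcr4 was at 0. With cells thinned to 500 UMIs the median was 0.25.

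Notch pathway genes had a median of 0.14 over 7 counted members. Jag1 was the only one whose interval left out 0, beside 4.18% of all counted genes above 0. Notch1 had 72 and 27 UMIs (0.46, -0.23 to 1.12) and the glycosyltransferase Mfng 40 and 5 (-1.12, -2.82 to 0.22). Of the BMP and TGF-beta list, 7 of 10 counted genes were above 0, beside 2186 of all 4638, and the list's median was 0.21. Besides Eng, Id1, a target of BMP signalling, had 85 UMIs in 59 f/f cells and 45 UMIs in 22 d/d cells (0.96, with a lower bound of 0.40). These 2 of the 10 had intervals above 0, beside 4.18% of all counted genes. In the other classes Id1 had log2 ratios of 0.01 (epithelial-gated, -0.23 to 0.24) and 0.26 (stromal-gated, 0.01 to 0.51). The receptor Acvrl1 had 36 and 6 UMIs (-0.71, -2.25 to 0.55) and Smad1 56 and 18.

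Basement membrane genes had a median of 0.03 over 18 counted members. No member had an interval above 0 and 2 had intervals below, beside 4.18% and 3.92% of all counted genes. Col4a1, a chain of type IV collagen, had 446 UMIs in 157 f/f cells and 120 UMIs in 41 d/d cells, 1894 and 1872 CPM, against 665 and 685 CPM in stromal-gated cells. Col4a2 had 183 and 52 UMIs, with a log2 ratio of 0.06 (-0.41 to 0.51), and that of Col4a1 was -0.02 (-0.32 to 0.28). Hspg2, the proteoglycan perlecan, had 81 f/f and 9 d/d UMIs (-1.29, -2.47 to -0.30), with 0.01 in stromal-gated cells. Fn1, fibronectin, had 71 and 7 (-1.47, -2.83 to -0.35), and stood at 1226 and 701 CPM in stromal-gated cells (-0.81, -0.96 to -0.66).

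Junction genes had a median of 0.20 over 17 counted members, and its sign depended on the gate, as given in the closing part. Intervals left out 0 for 1 member above and 2 below, beside 4.18% and 3.92% of all counted genes. Jam2 had 213 and 16 UMIs (-1.86, -2.69 to -1.12), and was lower in d/d in epithelial-gated (-1.98) and stromal-gated cells (-1.79) as well, at 1958 and 498 CPM in the former. Ctnna1, alpha-catenin, had 43 and 23 UMIs (0.97, 0.18 to 1.74). Genes of vascular tone and coagulation had a median of -0.19 over 13 counted members. Past 2-fold, 3 were higher and 3 lower, beside 4.36% and 12.1% of all counted genes. Intervals lay above 0 for 4, Anxa2, Edn1, Ece1 and Adamts9, and below for 1, Tfpi, beside 4.18% and 3.92%. Tfpi, the tissue factor pathway inhibitor, had 33 and 2 UMIs (-2.17, -5.27 to -0.20), Thbd, thrombomodulin, 28 and 3 (-1.35, -3.71 to 0.35), and Anxa2 42 and 28 (1.29, 0.55 to 2.02).

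Transcription factors of the endothelium had a median of 0.09, and 12 of 21 counted genes were above 0, beside 2186 of all 4638. Intervals left out 0 for 2 members above and 1 below, beside 4.18% and 3.92% of all counted genes. Erg had 43 and 14 UMIs (0.26, -0.73 to 1.16), Fli1 53 and 10 (-0.53, -1.67 to 0.46) and Sox18 51 and 19 (0.45, -0.39 to 1.24). Lmo2, a partner of Tal1 and GATA factors, had 63 and 30 (0.81, 0.13 to 1.46). The flow-responsive factor Klf2 had 29 and 15 UMIs (0.93, -0.08 to 1.87). Tcf4 had 58 and 5 (-1.66, -3.33 to -0.35) and was lower in d/d in stromal-gated cells too (-1.10, -1.52 to -0.71).

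**Figure D5:**
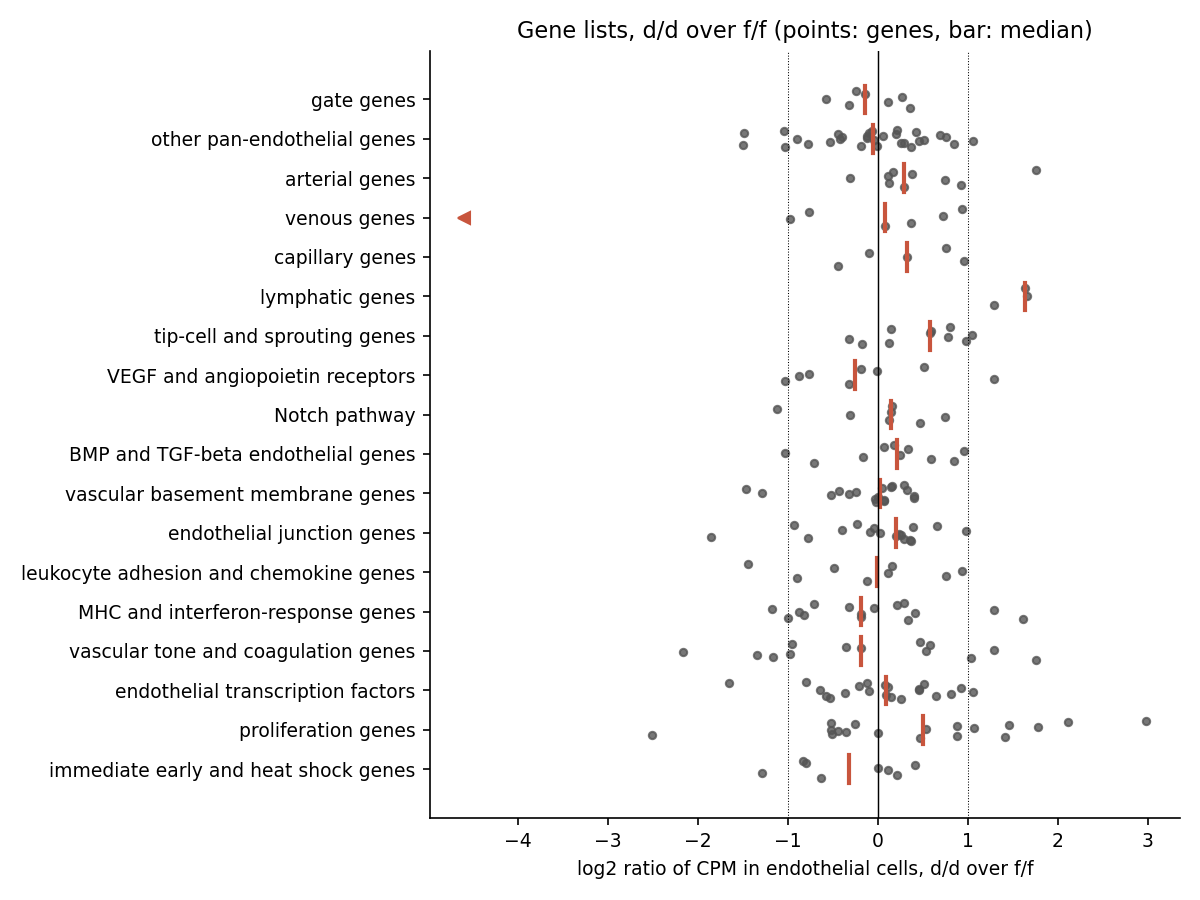
Log2 ratio of CPM, d/d against f/f, in endothelial cells (x axis) for each list member with at least 20 UMIs (points, spread vertically for sight) and the median of each list (red bar); dotted lines mark 2-fold. The red triangle is Aplnr, at 0 in d/d and drawn at the edge, and the medians lie between -0.32 and 0.58 in every list but the lymphatic one, at 1.64.

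Proliferation genes were present in both libraries. After thinning to 500 UMIs, 55.3% of f/f endothelial cells (131 of 237) and 56.5% of d/d cells (39 of 69) had a UMI of the list, a difference of 1.25 points (-12.8 to 14.8). Unthinned shares were 71.0% and 62.3%. In epithelial-gated cells the thinned shares were 45.8% and 76.8%, and in stromal-gated cells 39.9% and 48.5%.

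The list's median log2 ratio was 0.50, but it was -0.67 with cells thinned to 500 UMIs and -0.43 over members with at least 40 UMIs. Of 18 counted genes, 11 were above 0, beside 2186 of all 4638, and 5 had intervals above 0, beside 4.18% of all. Those 5, genes of mitosis, cytokinesis or DNA untangling, were Top2a at 36 and 26 UMIs (1.41, 0.62 to 2.18), Anln at 17 and 20 (2.11, 1.10 to 3.14), Tpx2 at 16 and 15 (1.78, 0.67 to 2.90), Ect2 at 7 and 15 (2.98, 1.60 to 4.51) and Prc1 at 12 and 9. Other members, of which Mcm7 and Mcm3 belong to the replicative helicase, had intervals that included 0, with Mcm7 at 61 and 13 (-0.35, -1.34 to 0.53), Mcm3 at 47 and 9 (-0.51, -1.72 to 0.54) and Rrm1 at 21 and 1. Top2a was higher in d/d in epithelial-gated (1.07, 0.87 to 1.27) and stromal-gated cells (1.42, 1.10 to 1.74) as well, and its highest level was in epithelial-gated cells, at 371 and 781 CPM. The part of RNA from other cells in these UMIs was not tested.

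Among genes with at least 40 UMIs, an interval off 0 and no level over 5 times higher in another class, the 12 highest ratios were those of Igha, Ankle1, Rph3al, Tnfrsf19, Pfdn1, Col6a4, Arhgap42, Pacsin3, Rgs3, Top2a, R3hcc1l and Pax8, from 1.96 down to 1.39. With both libraries summed, only Rgs3 of these 12 was highest in endothelial cells (0.80 over the highest other class). The others were higher in another class, down to -1.60 for Pacsin3. The part of RNA from other cells in these ratios was not tested. Igha, an immunoglobulin heavy chain, had 33 and 35 UMIs (1.96, 1.23 to 2.69) and similar ratios in epithelial-gated (1.56) and stromal-gated cells (1.43). Rgs3, a regulator of G protein signalling, had 73 UMIs in 59 f/f cells and 53 UMIs in 31 d/d cells (1.42, 0.88 to 1.95) and was 1.17 and 1.09 there. Pfdn1, a chaperone subunit, and R3hcc1l had ratios of 1.60 and 1.40 in endothelial cells, and intervals that included 0 in both other classes.

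The 12 lowest by the same rule were Lrp2, Rims3, Slc2a3, Eml4, Hook1, Cwc22, Vps33b, Hoxd9, Dcxr, Rbm14, Ppl and Hnrnpul2, from -4.35 up to -1.96. Lrp2, the endocytic receptor megalin, had 75 f/f and 1 d/d UMIs in endothelial cells, and was at -2.99 in epithelial-gated and -2.02 in stromal-gated cells. Its level was highest in epithelial-gated cells, at 1197 and 151 CPM. Slc2a3, a glucose transporter, had 78 and 2 UMIs (-3.41, -6.48 to -1.51) with -2.31 and -2.09 in the same classes, and Cwc22, a splicing factor, 139 and 7 (-2.43, -3.78 to -1.35) with -2.81 and -2.23. Eml4 had 46 and 2 UMIs (-2.65, -5.73 to -0.71), and Rbm14 58 and 4 (-1.98, -3.90 to -0.55). In epithelial-gated and stromal-gated cells the intervals of Eml4 and Rbm14 included 0.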

How the data were processed

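The deposited files hold UMI counts per probe-targeted gene and called cell barcode, 19070 genes, not normalised; per the file headers, Cell Ranger 9.0.0 made them. Per the submitters' processing notes, 2 genome builds, mm10 and GRCm39, are named with no role, so no coordinates were taken from the counts. Barcodes were classed by the rule given in the report, and 4 other classes by its mirror (own sum at least 2 and above each other sum). Counts were summed per class and library and scaled to CPM. Log2 ratios have exact conditional binomial intervals, sums exact Poisson and shares Clopper-Pearson intervals. Differences of shares combine both intervals in quadrature. All are at 95% and cover counting error only. A count of 0 was set to a floor of 3 UMIs over the class for bounds. Genes were compared with at least 40 UMIs over both libraries, list members with at least 20. No doublet caller was run; leaving out the 5% of endothelial cells with the most UMIs was tried instead. Cells were thinned to 500 UMIs where shares were compared, which left out 1 f/f cell. The replicate numbers only name the libraries.

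Named genes were the gate genes, the 20 most enriched over the other classes, the 12 highest and 12 lowest ratios between libraries with an interval off 0 and no level over 5 times higher in another class, and from each of 25 lists the most abundant members and those off 0. The endothelial cells, the rule and the lists were chosen with earlier results of these data known. The set of enriched genes, the arterial against venous comparison, the promoter words and the setting without the top cell of a gene were added after the data had been seen. The pick of lymphatic genes followed no rule set beforehand. Scripts were tested on simulated data. Tools were Python 3.11.15, numpy 2.4.6, pandas 2.3.3, scipy 1.17.1, matplotlib 3.10.9, and edgeR 4.0.16 in R 4.3.3 for TMM factors of the summed counts.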

Additional observations from a re-analysis of the deposited data

How the results depend on the processing

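No paired analysis was possible because each genotype had 1 library and no result came from a test. Genes past 2-fold numbered 48 higher and 150 lower of 2083 (2.30% and 7.20%). At 20 UMIs they numbered 202 and 561 of 4638 (4.36% and 12.1%), and at 100 UMIs 3 and 14 of 390 (0.77% and 3.59%). With cells thinned to 500 UMIs they numbered 31 and 50 of 701 (4.42% and 7.13%). Where all 4 other sums were 0 they numbered 5 and 8 of 81 (6.17% and 9.88%). With a gate sum of at least 4 the higher ones numbered 25 of 1413 (1.77%). TMM scaling shifted all ratios by -0.06. The pan-endothelial median moved to 0.17 at a mitochondrial share of at most 5%, 0.16 without the 5% of cells with the most UMIs and 0.15 without cells with a pericyte UMI. The arterial median was -0.0083 and the tip-cell median 0.25 with thinned cells; the latter was 0.27 and 0.28 at gate sums of at least 3 and 4 and 0.26 at 5% mitochondrial share. The junction median changed sign to -0.052 and -0.15 at those gate sums, -0.020 with no mitochondrial limit, -0.16 with all other sums at 0 and -0.030 without pericyte UMIs. The proliferation median changed sign to -0.43 at 40 UMIs per member and -0.67 with thinned cells. The difference in arterial shares, 14.6 points, became -0.70 thinned to 300 UMIs and -3.20 with no mitochondrial limit. With all other sums at 0, which kept 68 and 14 cells, the capillary difference was 20.1 and the lymphatic -7.46 points, and these ratios changed sign: Adgrf5 -0.064, Edn1 -0.064, Fam171a1 -0.16, Hand2 0.26, Jam2 0.035, Lmo2 -0.62, Pdgfb -0.24, Pkn3 0.073, Ppl 0.52, Prkd2 0.16 and Slc66a2 0.26. Tbx1 was -0.97 at 5% mitochondrial share. In d/d cells alone the arterial over venous ratio was 0.40 for Fli1, 0.31 for Foxp1, 0.026 for Plec, 0.72 for Rgl1 and 0.72 for Smad1. The cause of these moves was not tested. Genes at 0 in d/d had no ratio to recompute. The d/d sum of 64109 UMIs limits every ratio, so that a gene with 1 d/d UMI stands at 15.6 CPM.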

Other observations

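Class I and interferon-response genes were counted in 15 of 32 members, with a median log2 ratio of -0.19. Of these 15, 6 were higher in d/d, beside 2186 of all 4638 counted genes. H2-K1, a class I heavy chain, had 184 UMIs in 118 f/f and 63 UMIs in 33 d/d endothelial cells, 781 and 983 CPM (0.33, -0.11 to 0.75). H2-D1 had 12 and 10 UMIs (1.61, 0.24 to 2.95), and its levels were also higher in d/d in epithelial-gated cells, at 53.9 and 167 CPM. Bst2 had 78 and 17 UMIs. Leukocyte adhesion and chemokine genes had a median of -0.01 over 8 counted members. Icam1 had 10 UMIs in f/f and none in d/d, Vcam1 11 and 1, and Ccl2, Cxcl9, Cxcl10, Madcam1 and Glycam1 were at 0 in both libraries.

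Steroid receptors were counted in 2 of the list's members. Esr1, the estrogen receptor, had 130 and 39 UMIs, 552 and 608 CPM, against 973 and 1079 CPM in stromal-gated cells, and Pgr, the progesterone receptor, 38 and 6 UMIs. Immediate early and heat shock genes had a median of -0.32, with Hsph1 at 118 and 18 UMIs (-0.84, -1.64 to -0.11) and Fos at 10 and 0. Hand2, a stromal factor outside the rule, had 67 and 8 UMIs (-1.19, -2.46 to -0.13) in endothelial cells and 1160 and 762 CPM in stromal-gated cells.

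Barcodes above the mitochondrial limit that met the rest of the rule numbered 30 of 280 in f/f (10.7%, 7.35 to 14.9%) and 14 of 295 in d/d (4.75%, 2.62 to 7.83%). They carried the pan-endothelial list at 6308 and 7658 CPM, beside 6742 and 6863 CPM within the limit. With them included, the difference in arterial shares after thinning changed sign, as given above.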
